A study of Mus musculus with 4 samples.

Results

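The genes described here encode the protein subunits of the cytosolic ribosome of the mouse. They were chosen by symbol alone: Rpl or Rps followed by a number and at most 1 letter a, l or x, together with Rpsa, Rplp0, Rplp1 and Rplp2, and without names that hold -ps. This gave 83 genes of the 55291 symbols counted, 51 named for the large subunit and 32 for the small one. GENCODE M21 annotates 80 of them as protein-coding and 3, Rps4l, Rpl32l and Rpl6l, as processed pseudogenes. Of the 83 genes 81 had enough counts to be tested; Rpl10l had 0 counts in all 4 libraries, and Rpl39l had 10 and 8 counts in the libraries labelled knockout, against 4 and 2 in control libraries.

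RNA of whole pancreas was sequenced in 4 libraries, 2 of the genotype Pdx1-Cre+, poh1f/f (knockout replicates 1 and 2) and 2 of the genotype Pdx1-Cre+, poh1f/+ (control replicates 1 and 2). Mice of both groups carried Pdx1-Cre, and the groups differed in the number of floxed copies of poh1, which was 2 in knockout mice and 1 in control mice. Poh1 is an older name of Psmd14, the deubiquitinase of the proteasome lid. The Pdx1 promoter drives Cre in the embryonic cells that form the acini, ducts and islets, so that blood, immune, stromal and fat cells of the tissue keep the gene. The labels give no ages and no floxed exons, and do not say that the replicates are separate animals. The p-values below thus measure the spread between these libraries, which may be technical.

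Library totals ran from 22875618 to 27849730 counts, and 1 count was worth 0.0342 to 0.0455 CPM (counts over the library total, scaled with TMM factors). Psmd14 itself had 1839 and 1906 counts in the libraries labelled knockout, against 1354 and 1265 in control libraries, a log2 fold change of 0.20 ± 0.11 (SE; edgeR adjusted p = 0.259). Its RNA was therefore not lower in the libraries labelled knockout, and genotype rests on the labels throughout. The makeup of the tissue differed between the groups. Summed over 12 marker genes, acinar RNA stood at 193 and 533 CPM in libraries labelled knockout, against 9758 and 2105 CPM in control libraries. B cell markers (10 genes) summed to 1412 and 1467 CPM in libraries labelled knockout, against 98.7 and 62.7 CPM in controls, and T cell markers (10 genes) to 473 and 540 CPM, against 38.7 and 31.5 CPM. Adipocyte markers (10 genes) summed to 4805 and 3942 CPM in libraries labelled knockout, against 396 and 1063 CPM in controls, and knockout replicate 2 stood apart with 760 CPM of enterocyte markers, against 11.6 CPM in knockout replicate 1 and 25.7 and 33.5 CPM in controls. Fibroblast markers (10 genes) summed to 10710 and 9407 CPM in libraries labelled knockout, against 26345 and 30310 CPM in controls, and macrophage markers (10 genes) to 2858 and 2693 CPM, against 4614 and 4093 CPM. Duct markers (10 genes) summed to 979 and 1125 CPM in libraries labelled knockout, against 4165 and 3352 CPM in controls, and islet markers (10 genes) to 449 and 155 CPM, against 1829 and 1045 CPM. The part of this makeup in the values below was not tested, and in such bulk RNA fewer cells of a type and less RNA per cell cannot be told apart.

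The cytosolic ribosome joins a large subunit, which forms peptide bonds and holds the exit tunnel, with a small subunit, which decodes the mRNA. Most of its proteins are present in 1 copy per ribosome, and their mRNAs share short, strong promoters and a run of pyrimidines at the very 5′ end (the TOP sequence), through which mTOR signalling controls their translation. When ribosome assembly fails, free Rpl5 and Rpl11 bind Mdm2 and stabilise p53. Acinar cells of the pancreas are known for very high rates of protein synthesis.

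The promoters of the genes that the results turn on are shown first. RefSeq (GRCm38.p6) holds start sites for 61 of the 83 genes, 73 windows in all. Printed are 70 bases before to 20 bases after a start site, on the gene's strand, with 2 searched motifs in capitals where they occur: CGGAAG on either strand, the core bound by ETS family factors, and, within 30 bases of the start, CTTTCC or CTTTTC or CTCTTT on either strand, which resemble a TOP start. Rps27l and Rps27 are a pair of paralogs that had the lowest and the second highest log2 fold change among the small subunit genes. Rpl41 had the lowest log2 fold change of the large subunit, and Rps6, the ribosomal target of S6 kinase, holds both motifs.
Rps27l (chr9:66946016-66946105, plus strand): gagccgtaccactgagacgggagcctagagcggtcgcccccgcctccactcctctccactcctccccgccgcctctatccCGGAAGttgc
Rps27 (chr3:90213629-90213718, minus strand): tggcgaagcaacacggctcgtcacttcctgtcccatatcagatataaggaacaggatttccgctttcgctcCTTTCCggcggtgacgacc
Rpl41 (chr10:128549149-128549238, minus strand): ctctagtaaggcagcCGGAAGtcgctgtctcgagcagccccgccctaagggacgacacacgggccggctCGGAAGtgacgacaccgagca
Rps6 (chr4:86857348-86857437, minus strand): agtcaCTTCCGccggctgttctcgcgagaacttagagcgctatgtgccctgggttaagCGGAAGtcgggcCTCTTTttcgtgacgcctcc

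In these stretches the Rps27 promoter carries a pyrimidine match at its start and the Rps27l promoter carries CGGAAG and no pyrimidine match. Outside its printed stretch, within 250 bases before to 50 after the start, Rps27 also holds CGGAAG on either strand. RefSeq gives Rps27l a further start site downstream, whose printed-length stretch holds neither. Over the full windows, 250 bases before to 50 after a start, CGGAAG occurred on either strand in 44 of 73 ribosomal protein windows (60.3%) and in 16.9% of all 32851 windows. A pyrimidine match near the start occurred in 27 of 73 windows (37%) and in 12.6% of all. On the gene's own strand the shares were 34.2% against 9.51% for CGGAAG and 32.9% against 6.54% for the pyrimidine letters. A match is a description of letters and not of binding.

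The RNA of the ribosomal proteins took up 2.69% and 2.82% of all counts in libraries labelled knockout, against 3.26% and 2.64% in control libraries. Summed over the 83 genes the level was 26455 and 26883 CPM in libraries labelled knockout, against 33946 and 27185 CPM in control libraries. Control replicate 1 thus stood above the other 3 libraries, which lay close to each other. The knockout mean was 12.7% below the control mean (26669 ± 303 against 30566 ± 4781 CPM, SD, n = 2 each), a difference smaller than the SD of the control pair (exact two-sided permutation test over samples, p = 0.333, the smallest p that 2 against 2 libraries allow).

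Between the groups, no ribosomal protein gene passed the test. Under edgeR's quasi-likelihood test with Benjamini-Hochberg adjustment over all 19134 genes tested, 0 of 81 were higher and 0 lower in libraries labelled knockout, where 12.1% of all genes were called higher and 9.95% lower (22.1% in either direction). Among the 2541 genes of at least 100 CPM, a level that 73 of the 81 ribosomal protein genes reach, 28% were called. At an unadjusted p under 0.05 there were 4 lower (Rps27l, Rps4l, Rpl41 and Rps2) and 0 higher, beside 18.4% of all genes lower. DESeq2 called the same 4 lower and 0 higher, beside 11.2% of all genes lower and 13.2% higher. For the 73 genes of at least 100 CPM no 95% interval reached below −0.93 or above 0.49 on the log2 scale. These intervals rest on the spread between 2 libraries per group, which may be technical, and so do not bound a difference between genotypes.

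The differences were small and mostly of 1 sign. The median log2 fold change over the 81 genes was −0.17 (quartiles −0.26 and −0.10, range −0.73 to 0.42), and 74 of 81 were negative. Over all tested genes the median was −0.0018, and over genes of at least 100 CPM it was −0.08. Both libraries labelled knockout lay below both control libraries for 35 of 81 genes (43.2%), beside 33.7% of all genes, and above both for 2, Rpl24 and Rps10, beside 34.4% of all genes. Among genes of at least 100 CPM the share below was 32 of 73 (43.8%), close to the 43.5% of all genes at that level. Scaled by library totals alone, which put the median of all genes at 0.097, the median of the ribosomal protein genes was −0.07 and 61 of 81 were negative. The shift also rested on 1 library: without control replicate 1 the median was 0.01 and 38 of 82 tested genes were negative. Without control replicate 2 the median was −0.33.

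**Figure D1:**
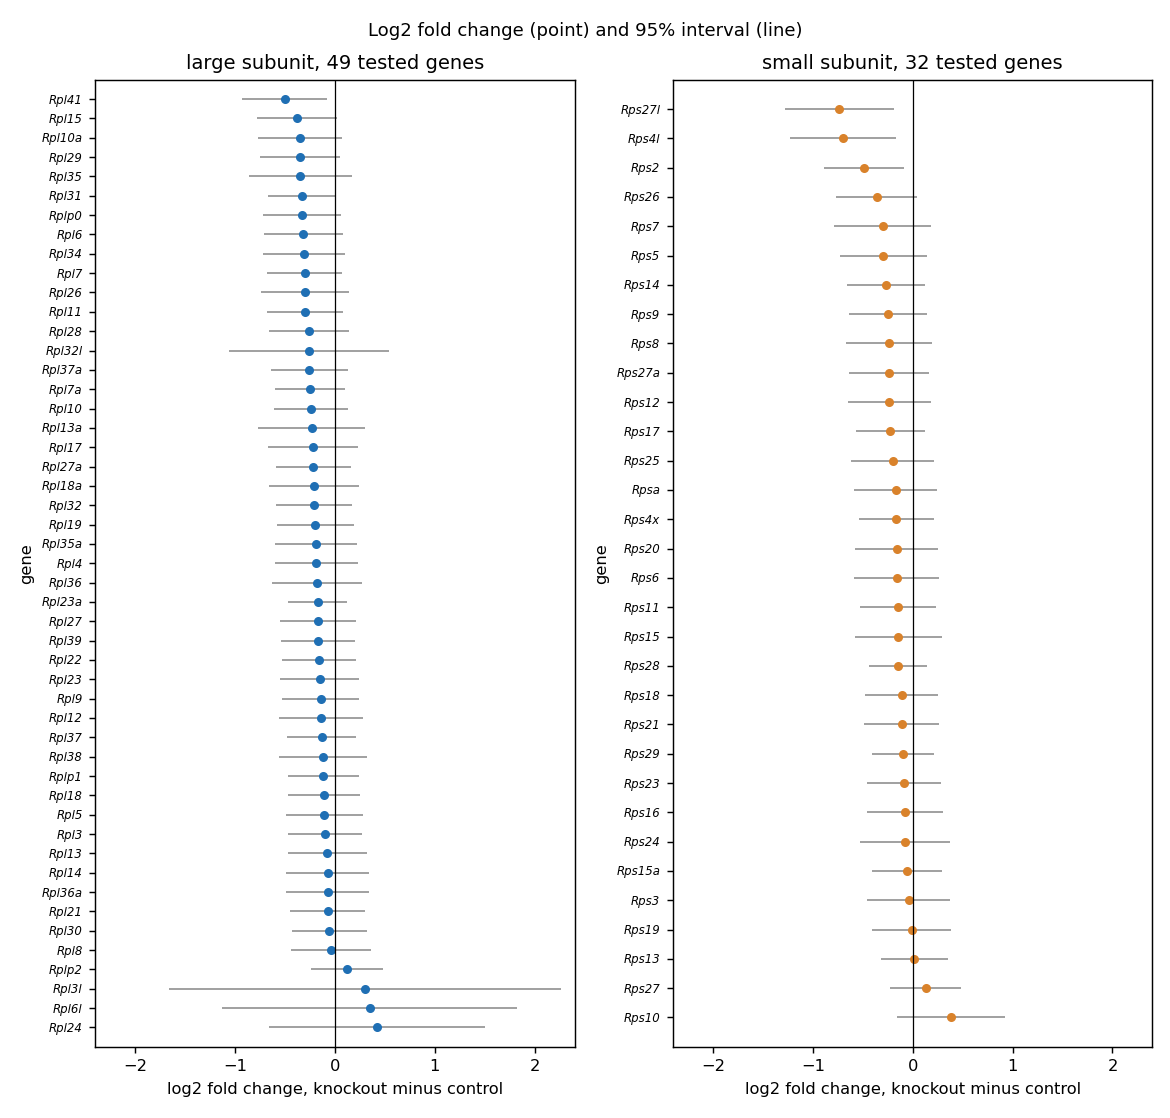
Each point is the log2 fold change, knockout minus control, of 1 tested ribosomal protein gene with its 95% interval as a line (edgeR, n = 2 libraries each), 49 of the large subunit (left) and 32 of the small subunit (right), ordered by size. Most points lie between −0.40 and 0 with intervals that cross 0, Rps27l and Rps4l lie farthest to the left, and the wide intervals belong to genes of few counts such as Rpl3l and Rpl24.

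Within the control pair the genes moved as a block. All 81 were higher in control replicate 1 than in control replicate 2, where 9619 of 19134 tested genes were. The median log2 difference between these libraries was 0.33 (quartiles 0.29 and 0.38) for ribosomal protein genes, 0.0052 for all genes and −0.02 for genes of at least 100 CPM. For the 73 abundant ribosomal protein genes it ran from 0.21 to 0.58. The libraries labelled knockout differed little: the median was −0.02 (quartiles −0.04 and −0.0029), and 18 of 81 genes were higher in knockout replicate 1. Control replicate 1 was the highest of the 4 libraries for 78 of 81 genes (96.3%), beside 30.8% of all genes and 34.9% of abundant ones, and the exceptions were Rpl24, Rps27 and Rps10. Acinar markers also differed within the control pair, at 9758 CPM in replicate 1 and 2105 CPM in replicate 2, as did islet markers (1829 and 1045 CPM) and adipocyte markers (396 and 1063 CPM); their part was not tested.

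**Figure D2:**
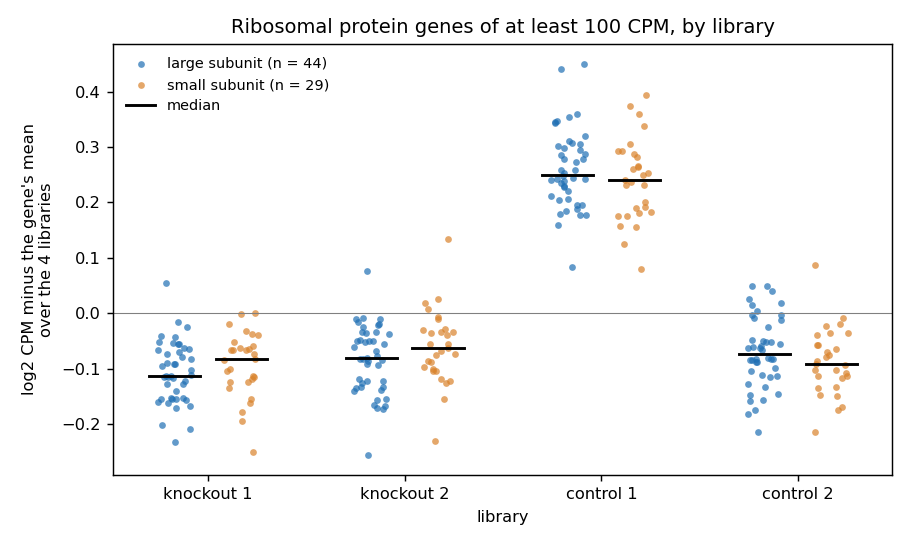
Each point is 1 of the 73 ribosomal protein genes of at least 100 CPM in 1 library, as log2 CPM minus the gene's mean over the 4 libraries, for 44 genes of the large and 29 of the small subunit, and black bars are medians. Control replicate 1 stands above the other libraries in both subunits, with medians of 0.25 and 0.24, against −0.11 to −0.06 in the libraries labelled knockout and −0.07 and −0.09 in control replicate 2.

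**Figure D3:**
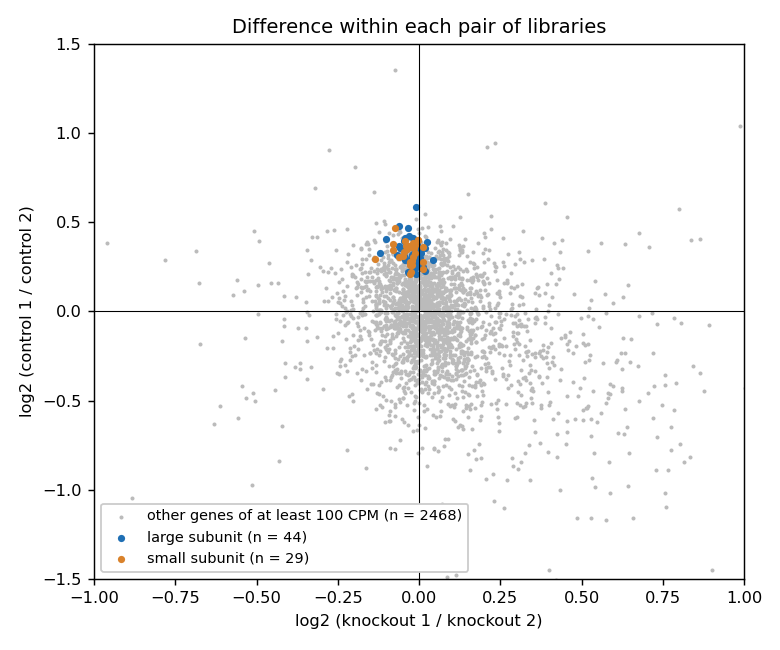
The x axis is the log2 ratio of knockout replicate 1 to 2 and the y axis the log2 ratio of control replicate 1 to 2, for the 73 ribosomal protein genes (blue, large subunit; orange, small subunit) and the 2468 other genes of at least 100 CPM (grey), of which 52 lie outside the axes. The ribosomal protein genes form a tight cluster near 0 on the x axis and between 0.21 and 0.58 on the y axis, while the other genes scatter around 0 on both.

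Large and small subunit genes had similar differences by their sums and their median log2 fold changes, and less so by the median gene of each subunit. Large subunit genes summed to 15737 and 15957 CPM in libraries labelled knockout, against 20244 and 16313 CPM in controls, and small subunit genes to 10717 and 10925 CPM, against 13702 and 10871 CPM. The ratio of large to small was 1.468 and 1.461 in libraries labelled knockout, against 1.477 and 1.501 in control libraries. Both knockout ratios were below both control ratios, and the group means (1.46 ± 0.0055 against 1.49 ± 0.0164, SD, n = 2 each) differed by −0.0245, or −1.65% (exact two-sided permutation test, p = 0.333, the smallest possible). Median log2 fold changes were −0.19 over 49 tested large subunit genes, 45 of them negative, and −0.16 over 32 small subunit genes, 29 of them negative. Taking instead the median gene of each subunit, the ratio was 0.933 and 0.931 in libraries labelled knockout, against 1.02 and 1.06 in controls. The group means of this ratio differed by −10.2%, so the 2 measures of the ratio disagree in size.

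**Figure D4:**
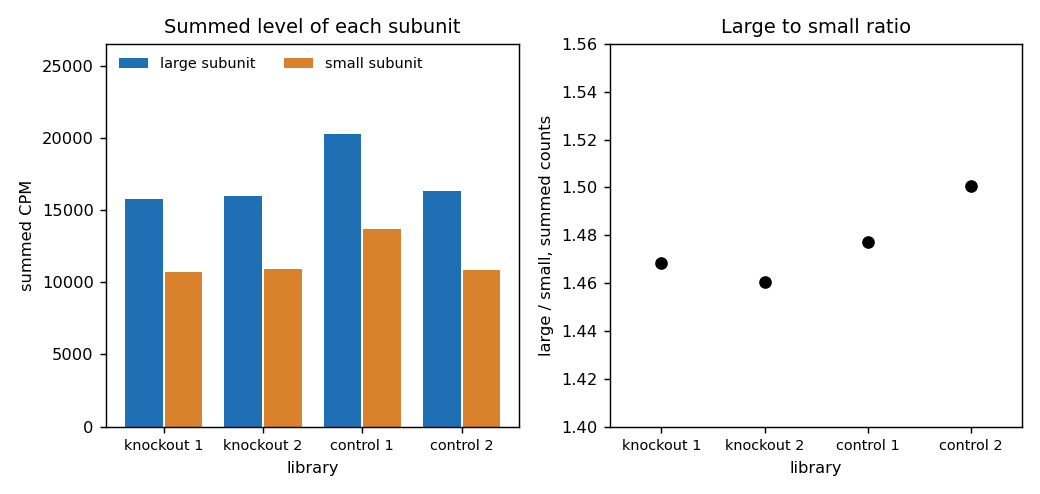
Bars (left) are the summed CPM of the 51 large and 32 small subunit genes in each library, and points (right) the ratio of the summed counts, on an axis that does not start at 0. Control replicate 1 has the highest sum in both subunits, and the ratio lies at 1.468 and 1.461 in libraries labelled knockout, against 1.477 and 1.501 in control libraries.

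The genes differed widely in level among themselves. Per kilobase of exon, mean levels over the 4 libraries were highest for Rplp1 (827 CPM per kb), Rplp0 (632) and Rpl4 (498) in the large subunit and for Rps15 (625), Rps4x (452) and Rps6 (357) in the small one. Exon length here joins all annotated exons of a gene and can far exceed 1 transcript. It was 6256 bases for Rps24, against 468 in its transcript Rps24-201, but 499 in both for Rplp1. This order therefore depends on the annotation as well as on the counts. At the other end, 8 of the 83 genes were under 20 CPM, among them Rpl24 (0.772 CPM per kb), Rps10 (2.696) and Rpl13a (8.34), which encode core subunits. These 3 are the ribosomal protein genes whose exons overlap another gene on the same strand by at least 20% of their length in GENCODE M21, 47% for Rpl24 (Gm28037), 20.6% for Rps10 (RPS10-NUDT3) and 35.4% for Rpl13a (Gm45713). Gm28037 and Gm45713 have 0 counts in all 4 libraries. The levels of these 3 genes are therefore uncertain, and so are their differences, which were 0.42 for Rpl24 (edgeR adjusted p = 0.514), 0.38 for Rps10 (0.244) and −0.23 for Rpl13a (0.456). Many ribosomal protein genes also have processed copies elsewhere in the genome: the share of a gene's 50-base stretches found in transcripts of other genes had a median of 53.9% over 80 genes, and reached 98.6% for Rps27. Across the 78 tested protein-coding genes, which share libraries and partners, that share had a Spearman correlation of 0.04 with the level per kb and −0.03 with the log2 fold change.

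Rps27l had the lowest log2 fold change of all 81. This gene (chr9:66946086-66949516, plus strand) encodes a paralog of Rps27 that p53 induces. It stood at 47.3 and 48.0 CPM in libraries labelled knockout, against 96.2 and 62.3 CPM in control libraries. The groups do not overlap, beside 33.7% of all genes that lay below in this way. The control libraries lie farther apart than the gap between the groups. Its log2 fold change was −0.73 ± 0.22 (SE; 95% interval −1.28 to −0.19; edgeR adjusted p = 0.0677). DESeq2 called it lower (adjusted p = 0.0137), and so did edgeR without knockout replicate 1 (0.0466), without knockout replicate 2 (0.0427) and without control replicate 2 (0.0255). Without control replicate 1 the value was −0.39 (adjusted p = 0.103). Its canonical partner Rps27 (chr3:90212522-90213651, minus strand), a zinc-binding protein of the small subunit, had 159 and 175 CPM in libraries labelled knockout, against 168 and 137 CPM in controls. These groups overlap, and the log2 fold change was 0.13 ± 0.14 (95% interval −0.23 to 0.49; adjusted p = 0.545). The difference between the paralogs was not tested.

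The other genes named as paralogs were low. Rps4l (chr6:148354656-148355598), annotated as a transcribed processed pseudogene, had 24.0 and 18.5 CPM in libraries labelled knockout, against 39.3 and 29.7 CPM in controls. Its log2 fold change was −0.70 ± 0.21 (edgeR adjusted p = 0.0708, DESeq2 adjusted p = 0.024). The groups did not overlap, beside 33.7% of all genes that lay below in this way. Rps4x, the X-linked gene it resembles and a protein of the small subunit body, had 698 and 692 CPM in libraries labelled knockout, against 845 and 715 CPM, a log2 fold change of −0.17 (edgeR adjusted p = 0.454). Rpl3l, a paralog of Rpl3 used in heart and skeletal muscle, had 0.824 and 1.10 CPM in libraries labelled knockout, against 1.32 and 0.251 CPM in controls; at these counts its log2 fold change of 0.30 ± 0.77 says little. Rpl3, which reaches towards the peptidyl transferase centre, had 762 and 779 CPM in libraries labelled knockout, against 891 and 766 CPM, a log2 fold change of −0.10 (adjusted p = 0.642). Rpl10l and Rpl39l, paralogs known from testis, did not pass the filter on low counts, as described above. Their partners were abundant: Rpl10, the late-joining protein next to the catalytic centre, had 577 and 574 CPM in libraries labelled knockout, against 739 and 624 CPM in controls (log2 fold change −0.24, adjusted p = 0.279). Rpl39, a small protein lining the exit tunnel, had 129 and 140 CPM in libraries labelled knockout, against 168 and 134 CPM in controls (−0.17, adjusted p = 0.437).

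Among the canonical genes, Rpl41 and Rps2 had the lowest values. Rpl41 (chr10:128548114-128549305, minus strand) encodes the shortest ribosomal protein, a basic peptide at the subunit interface. It had 291 and 286 CPM in libraries labelled knockout, against 464 and 354 CPM in controls, a log2 fold change of −0.50 ± 0.17 (edgeR adjusted p = 0.0907; DESeq2 0.0252). Rps2 (chr17:24718116-24721929, plus strand), a small subunit protein at the mRNA entrance that the methyltransferase Prmt3 modifies, had 512 and 518 CPM in libraries labelled knockout, against 800 and 646 CPM in controls. Its log2 fold change was −0.49 ± 0.16 (edgeR adjusted p = 0.0837; DESeq2 0.0135). In both genes the groups do not overlap, and the control libraries are farther apart than the libraries labelled knockout. Both were named for small p-values, and 43.5% of all genes of at least 100 CPM lay below in this way. Without control replicate 1 the values were −0.29 and −0.33, each with an edgeR adjusted p of 0.125.

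Next in the order of the large subunit came Rpl15, with 280 and 288 CPM in libraries labelled knockout, against 414 and 326 CPM in controls (log2 fold change −0.38, edgeR adjusted p = 0.141). Rpl10a, the protein of the mobile L1 stalk, had 360 and 375 CPM in libraries labelled knockout, against 529 and 410 CPM (−0.35, 0.183). Rpl29 had 266 and 266 CPM in libraries labelled knockout, against 380 and 299 CPM (−0.35, 0.166). Rpl31, which sits at the rim of the exit tunnel, had 289 and 285 CPM in libraries labelled knockout, against 389 and 332 CPM (−0.33, 0.136). In the small subunit Rps26, next to the mRNA exit, had 245 and 252 CPM in libraries labelled knockout, against 360 and 279 CPM (−0.36, 0.164). Rps14, of the platform of the small subunit, had 347 and 350 CPM in libraries labelled knockout, against 466 and 372 CPM (−0.27, 0.267). In each of these 6 genes the libraries labelled knockout agree closely and lie below both controls, and control replicate 1 is the farthest away. The 6 were named for small p-values, a choice that favours groups that do not overlap. Among genes of at least 100 CPM, 43.8% of ribosomal protein genes and 43.5% of all genes lay below in this way.

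The stalk of the large subunit, which recruits the elongation factors, is built from Rplp0, Rplp1 and Rplp2 on Rpl12. Rplp0, its base, had 933 and 926 CPM in libraries labelled knockout, against 1268 and 1069 CPM in controls (log2 fold change −0.33 ± 0.15, edgeR adjusted p = 0.183). Rplp1 had 394 and 397 CPM in libraries labelled knockout, against 466 and 393 CPM (−0.12, 0.578). Rplp2 had 253 and 256 CPM in libraries labelled knockout, against 258 and 210 CPM (0.12 ± 0.14, 0.567). Rpl12 had 471 and 491 CPM in libraries labelled knockout, against 594 and 464 CPM (−0.14, 0.587). The groups overlapped for Rplp1, Rplp2 and Rpl12 and not for Rplp0, beside 43.5% of all genes of at least 100 CPM that lay below. Of the 4 stalk genes 0 passed the test, beside 22.1% of all genes. A list of 4 genes is too short for this to say much, and differences among them were not tested.

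Rpl5 and Rpl11, which carry the 5S rRNA and bind Mdm2, showed no call. Rpl5 had 604 and 616 CPM in libraries labelled knockout, against 718 and 596 CPM in controls (log2 fold change −0.11, edgeR adjusted p = 0.643). Rpl11 had 308 and 313 CPM in libraries labelled knockout, against 422 and 341 CPM (−0.30, 0.208). Over 9 genes known to bind Mdm2 or to belong to the 5S particle, edgeR called 0 and DESeq2 called 1 lower (Rps27l), against 22.1% of all genes called in either direction by edgeR and 11.2% called lower by DESeq2. Their median log2 fold change was −0.27, beside −0.17 for all ribosomal protein genes. Over 19 genes mutated in human Diamond-Blackfan anaemia, 0 were called and the median was −0.17. Among them Rps19, of the head of the small subunit, had 281 and 288 CPM in libraries labelled knockout, against 321 and 252 CPM (−0.01 ± 0.16, 0.968), with libraries labelled knockout between the controls. Over 8 proteins around the exit tunnel the median was −0.21, again with 0 called.

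The next genes, each of at least 100 CPM, had no call either. Rpl4, whose loop narrows the exit tunnel, had 934 and 937 CPM in libraries labelled knockout, against 1176 and 952 CPM in controls (log2 fold change −0.19, edgeR adjusted p = 0.45). Rpsa, the laminin receptor and a small subunit protein, had 826 and 855 CPM in libraries labelled knockout, against 1047 and 844 CPM (−0.17, 0.492). Rps6 had 531 and 537 CPM in libraries labelled knockout, against 670 and 524 CPM (−0.16 ± 0.17, 0.517). Rps15, near the decoding site, had 374 and 375 CPM in libraries labelled knockout, against 471 and 356 CPM (−0.14, 0.578). In Rpsa, Rps6 and Rps15 the libraries labelled knockout sit close to control replicate 2 and well below control replicate 1.

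Of 10 tested genes of ribosomal proteins whose symbols fall outside the naming rule, 0 were called, and the median log2 fold change was −0.14 (quartiles −0.23 and −0.07). Values of 9 of them follow. Rps3a1 had 616 and 621 CPM in libraries labelled knockout, against 741 and 597 CPM in controls (−0.11, edgeR adjusted p = 0.637), and Rack1, a scaffold protein of the small subunit, 672 and 679 CPM, against 945 and 774 CPM (−0.35, adjusted p = 0.171). Log2 fold changes were −0.14 for Fau, made as a fusion to a ubiquitin-like protein, −0.22 for Rpl22l1, −0.14 for Rpl7l1, 0.14 for Rpl36al, 0.12 for Rps27rt, −0.24 for Rps3a2 and −0.06 for Rps3a3. Of 74 tested genes with pseudogene names (-ps) only Rpl13-ps5 was called, beside 22.1% of all genes called in either direction. Its level was low, at 0.394 and 0.445 CPM in libraries labelled knockout, against 0 in both controls. That call was lost when either control library was left out or no filter on low counts was used (edgeR adjusted p = 0.0503 without the filter).

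Other parts of the translation machinery were read from the same fit. For elongation factors 0 of 9 were called (median log2 fold change −0.03), for initiation factors 0 of 36 (−0.09), for other TOP mRNAs 0 of 19 (−0.28) and for mitochondrial ribosomal proteins 0 of 77 (−0.10). DESeq2 added Eef1a1, the main elongation factor, with 3474 and 3428 CPM in libraries labelled knockout, against 4424 and 4140 CPM in controls. It also called Tpt1, a TOP mRNA, lower, with 1279 and 1284 CPM in libraries labelled knockout, against 1950 and 1560 CPM in controls, and Eif4a2, an RNA helicase of initiation, higher, with 515 and 509 CPM, against 402 and 399 CPM. The control pair differed in these lists too, with median log2 ratios of replicate 1 to 2 of 0.29 for other TOP mRNAs, 0.28 for mitochondrial ribosomal proteins, 0.21 for initiation factors and 0.15 for elongation factors, beside 0.33 for the cytosolic ribosomal proteins. Of the genes that host small nucleolar RNAs 0 of 6 were called, and of the dedicated chaperones of ribosomal proteins 0 of 6. Beside these counts, edgeR called 22.1% of all genes in either direction, and DESeq2 called 13.2% higher and 11.2% lower. Lists of 6 or 9 genes are too short for 0 calls to say much.

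Ribosome assembly factors, which process rRNA and build the subunits in the nucleolus, had calls at a share near that of all genes. Of 40 tested, 8 rose and 0 fell, with a median log2 fold change of 0.30 and 32 positive. This was 20% higher, beside 12.1% of all genes, and 20% in either direction, beside 22.1% of all genes. The difference from the ribosomal proteins was not tested. Heatr1 had 69.1 and 72.7 CPM in libraries labelled knockout, against 41.8 and 46.6 CPM in controls (0.68 ± 0.10, edgeR adjusted p = 0.0146). Utp20 had 62.4 and 65.8 CPM, against 37.8 and 43.1 CPM (0.66 ± 0.11, 0.0186). Both belong to the small subunit processome. They were named as the called factors with the smallest p-values, so that groups lying far apart follow from the choice. The other called factors were Dkc1, Rrp12, Rrp1b, Tsr1, Fbl and Nop58, with log2 fold changes of 0.47 to 0.96. Polr1a, the largest subunit of RNA polymerase I, was the 1 that edgeR called of 14 genes of that machinery, a share below the 12.1% of all genes called higher, with 71.6 and 77.4 CPM in libraries labelled knockout, against 40.4 and 45.6 CPM (0.79 ± 0.11, 0.0117). DESeq2 also called Polr1d, a subunit shared by RNA polymerases I and III, lower, with 56.0 and 55.9 CPM in libraries labelled knockout, against 87.9 and 70.5 CPM in controls (DESeq2 adjusted p = 0.0276; edgeR 0.0528). Without control replicate 1, a fit that called 702 genes higher and 424 lower in place of 2320 and 1904, the number of called assembly factors was 1, although the median was 0.39. In that fit the adjusted p was 0.0644 for Heatr1, 0.0707 for Utp20 and 0.0608 for Polr1a.

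Of 14 regulators of ribosomal gene expression, 1 rose and 1 fell, shares below the 12.1% and 9.95% of all genes called higher and lower. Myc, which drives ribosomal protein and rRNA genes, had 48.4 and 55.0 CPM in libraries labelled knockout, against 36.0 and 30.2 CPM in controls (log2 fold change 0.64 ± 0.14, edgeR adjusted p = 0.0335). The adjusted p for Myc was 0.0753 when control replicate 1 was left out, 0.0962 for control replicate 2 and 0.109 for knockout replicate 2, so that each of these fits lost the call. Mycn, its relative in developing and progenitor tissue, had 3.40 and 2.57 CPM, against 10.4 and 11.9 CPM (−1.90 ± 0.25, 0.0105), with an adjusted p of 0.0589 without control replicate 1. The mitochondrial rRNAs were the 2 genes called lower among 16 tested from the mitochondrial genome, beside 9.95% of all genes: mt-Rnr1 had 120 and 123 CPM in libraries labelled knockout, against 239 and 185 CPM (−0.81 ± 0.15, 0.0234), and mt-Rnr2 157 and 176 CPM, against 251 and 228 CPM (−0.53 ± 0.12, 0.0397). The mt-Rnr2 call was lost whichever library was left out and with library totals alone (adjusted p = 0.0727).

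**Figure D5:**
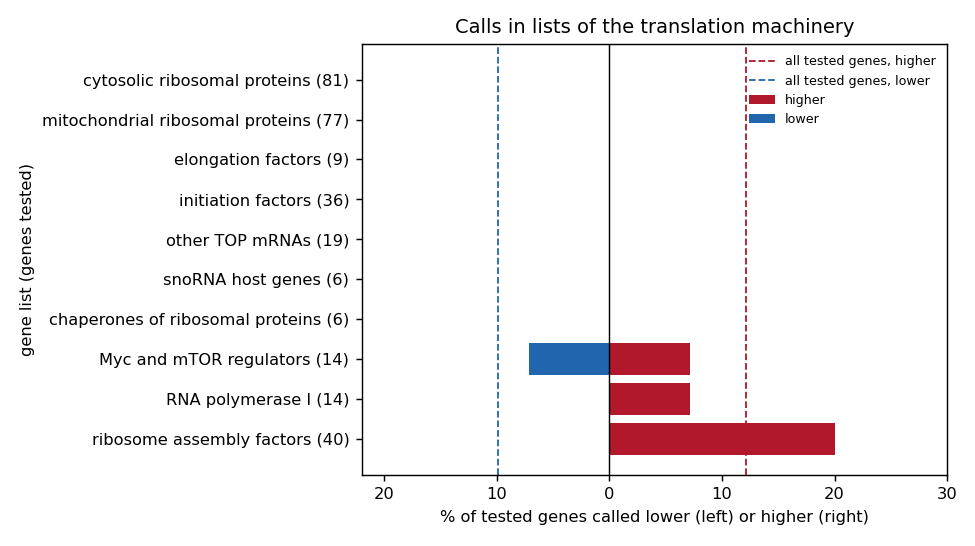
Bars give the percent of tested genes of each list called higher (to the right) or lower (to the left) in libraries labelled knockout by edgeR at an adjusted p under 0.05, with the number tested in brackets, and dashed lines give the percent over all tested genes. The cytosolic ribosomal proteins have 0 of 81 called in either direction. The assembly factors have 20% called higher and 0 lower, beside 22.1% of all tested genes called in either direction.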

How the data were processed

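Per the labels' protocols, libraries were prepared from TRIzol-extracted, DNase-treated total RNA using the Vazyme VAHTS V6 kit. The submitters' processing notes name STAR 2.7.6a and featureCounts 2.0.1 on the GRCm38 build, besides Trim Galore 0.6.6, FastQC 0.11.9 and SAMtools 1.7. The sources used here do not state the annotation, the strand setting or how reads with more than 1 alignment were handled, so reads of near-identical copies may have been split or dropped. Each of the 4 deposited files holds raw counts by gene symbol, per the file headers.

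Groups and replicate numbers came from the sample titles. The counts went into edgeR 4.0.16 under R 4.3.3 (filterByExpr, TMM, quasi-likelihood test on group, Benjamini-Hochberg over 19134 genes, threshold 0.05; common biological coefficient of variation 23%), a step tested on simulated data first. CPM use TMM-scaled totals, and intervals are 95%. Replicate libraries had a Pearson correlation of log2(CPM + 1) across genes of 0.980 (knockout) and 0.988 (control), against 0.928 to 0.943 between groups, and chi-square tests of counts found no library deposited in duplicate. Coordinates and exon lengths are from GENCODE M21 (GRCm38), promoters from RefSeq (GRCm38.p6). Genes were named by a rule: the 6 smallest p-values and 3 highest levels per kb of each subunit, the stalk, paralog and Mdm2-linked genes, and 2 called genes per list. Rpl24, Rpl13a, Rpl32l, Rpl6l, Eef1a1, Tpt1, Eif4a2, Polr1d and the assembly factors beyond Heatr1 and Utp20 were named after their values were seen. Some genes that the rule would name are not reported here. The members and lists were chosen with earlier results of these data known. Alternatives were DESeq2 1.42.0 and its size factors, library totals alone, no filter, a replicate block, and 4 fits without 1 library; in those fits the spread of the single library left in a group is taken from the other group. Those for the assembly factors and other named genes were chosen after seeing the data.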

Additional observations from a re-analysis of the deposited data

How the results depend on the processing

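The number of ribosomal protein genes called higher was 0 in every alternative fit to all 4 libraries. The number called lower was 0 with DESeq2 size factors, library totals alone or no filter and 4 with DESeq2. It varied when libraries were left out in turn. The replicate block called 1 lower (Rps4l, adjusted p = 0.0396) and 5 assembly factors higher in place of 8; same-numbered libraries did not deviate together (correlation of deviations −0.05 over all genes, −0.29 over the ribosomal protein genes), so the numbers are not treated as pairs. Under the block the adjusted p was 0.0543 for Myc, 0.0885 for mt-Rnr2 and 0.0676 for Rpl13-ps5. Leaving out libraries, the assembly factors called ran from 1 to 5, and the median log2 fold change from −0.33 to 0.010 over all ribosomal protein genes, −0.34 to 0.010 in the large subunit and −0.32 to 0.010 in the small subunit. In each of these medians the highest value came without control replicate 1 and the lowest without control replicate 2, and with library totals alone they were −0.07, −0.09 and −0.06. The difference in the large to small ratio was −0.11 (−10.2%) by the median gene of each subunit, against −1.65% by the sums. It stayed negative in the alternatives run for it. Many single genes changed sign when a library was left out, since 74 of 81 were negative in the fit to all 4 libraries and 38 of 82 without control replicate 1; among the genes of the naming rule they were Rplp1 (−0.23 to 0.012), Rps15 (−0.33 to 0.072), Rps6 (−0.33 to 0.028), Rpl5 (−0.23 to 0.036), Rpl3 (−0.21 to 0.011), Rpl39 (−0.32 to 0.0054), Rps19 (−0.18 to 0.18, and 0.088 with library totals alone), Rplp2 (−0.017 to 0.28), Rps27 (−0.010 to 0.28) and Rpl3l (−0.45 to 1.92). The cause was not tested. The widest 95% interval was that of Rpl3l, at 0.251 to 1.32 CPM per library (−1.66 to 2.26 on the log2 scale).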
